A study of Mus musculus with 20 samples.

Results

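The cytochrome P450 genes were examined in the translatome of epiAT adipocytes. Members were the protein-coding genes whose symbol is Cyp followed by a family number, a subfamily letter or letters and a gene number, and 94 of the 46078 genes in the counts table met this rule. They fell into 39 subfamilies and 16 families. Another 6 protein-coding Cyp genes with other symbol forms (Cyp51, Cyp3a41a, Cyp3a41b, Cyp4a12a, Cyp4a12b and Cyp4a30b) were not counted as members.

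All mice were AdipoERCre x NuTRAP mice on a C57BL/N background, in which a Cre recombinase driven by the adiponectin promoter and activated by tamoxifen turns on GFP-tagged ribosomes and labelled nuclei in adipocytes. Every mouse, controls included, carried both alleles and had received tamoxifen before the diets began. TRAP–seq sequences the mRNA pulled down with the tagged ribosomes from a lysate of the whole depot. In the short arm (3 mice per group), C mice were 18 weeks old and had eaten chow, H mice were 18 weeks old with 12 weeks of HFD, CC_s mice were 26 weeks old on chow, and HC mice were 26 weeks old with 12 weeks of HFD and then 8 weeks of chow (WL). In the long arm (2 mice per group), CC_l mice were 31 weeks old on chow and HH mice 31 weeks old with 25 weeks of HFD. CCC mice were 39 weeks old on chow, and HHC mice were 39 weeks old with 25 weeks of HFD and then 8 weeks of chow. Sample names begin with S086 in the short arm and S087 in the long arm, without saying what the prefix stands for, and comparisons were made only within an arm, between mice of the same age.

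P450 enzymes are heme proteins that insert oxygen into small lipophilic molecules. Those of the endoplasmic reticulum take electrons from NADPH through P450 oxidoreductase (Por), and those of mitochondria through ferredoxin. Families 1 to 3 are known for oxidizing drugs, pollutants and other foreign compounds, family 4 for oxidizing fatty acids and eicosanoids at the omega end, and the higher family numbers for steps in the making and clearing of steroids, bile acids, vitamin D and retinoic acid. Most are studied in liver. In adipose tissue, Cyp2e1 is a well-known abundant member, and fat-soluble substrates of P450s are stored there.

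Total counts per library ranged from 10710277 to 36738954. The summed CPM of 6 adipocyte markers (Adipoq, Plin1, Lep, Cidec, Fabp4 and Lipe) lay between 10300 and 120000 in every library, so adipocyte mRNA was present in all. Markers of other cells were present too. The 6 macrophage markers summed to 109 to 273 CPM in C, CC_s and CC_l, to 359 to 2590 in H and HC, to 2600 and 3370 in HH, and to 534 to 755 in CCC and HHC. The 4 endothelial markers summed to 931 to 1380 CPM in H and 606 and 1120 in HH, and to 66.7 to 631 in the other groups. Spermatid markers stood apart in CC_l replicate 1 (3330 CPM), HC replicate 3 (508) and C replicate 1 (123), against 0.127 to 65.2 in the other 17 libraries. Epididymal epithelium markers summed to 1810 CPM in C replicate 1, to 323, 946 and 137 in the 3 H mice, to 166 in HH replicate 1 and to 86.5 in HC replicate 2, against at most 25.9 in the other 14 libraries. In a bulk pulldown, a larger share of RNA from a cell type and a higher mRNA level within its cells cannot be told apart.

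P450 mRNA in these adipocytes came from few of the genes. With more than 3 counts taken as detected, 72 of the 94 members were detected in at least 1 library, 22 in none, and 18 in all 20 libraries. Members detected in every mouse of a group numbered 23 in C, 26 in H, 20 in CC_s, 21 in HC, 27 in CC_l, 30 in HH, 29 in CCC and 21 in HHC. The 43 members that passed edgeR's filter on low counts were tested. The subfamilies known from hepatic drug and steroid metabolism were thinly covered. Only 2 of 15 Cyp2c genes (Cyp2c23 and Cyp2c70), 3 of 8 Cyp2d genes (Cyp2d22, Cyp2d26 and Cyp2d9), 1 of 7 Cyp3a genes (Cyp3a13), 1 of 4 Cyp2a genes (Cyp2a12) and 3 of 5 Cyp2b genes (Cyp2b10, Cyp2b23 and Cyp2b9) were tested. None of the 5 Cyp4a genes, which code for fatty acid omega-hydroxylases, passed the filter, nor did Cyp7a1 or Cyp8b1 of bile acid synthesis. The Cyp4f subfamily, which oxidizes leukotrienes and long-chain fatty acids, was the most complete of the subfamilies with more than 1 gene, with 8 of 9 genes tested and 3 (Cyp4f13, Cyp4f16 and Cyp4f18) detected in every library. Among those tested, Cyp4f37, Cyp4f39 and Cyp4f14 were detected in only 2, 4 and 8 libraries. Cyp4f37 and Cyp4f39 were highest in CC_l replicate 1, the library with the highest spermatid markers. Of 8 Cyp2j genes, 3 were tested (Cyp2j6, Cyp2j9 and Cyp2j13).

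**Figure D1:**
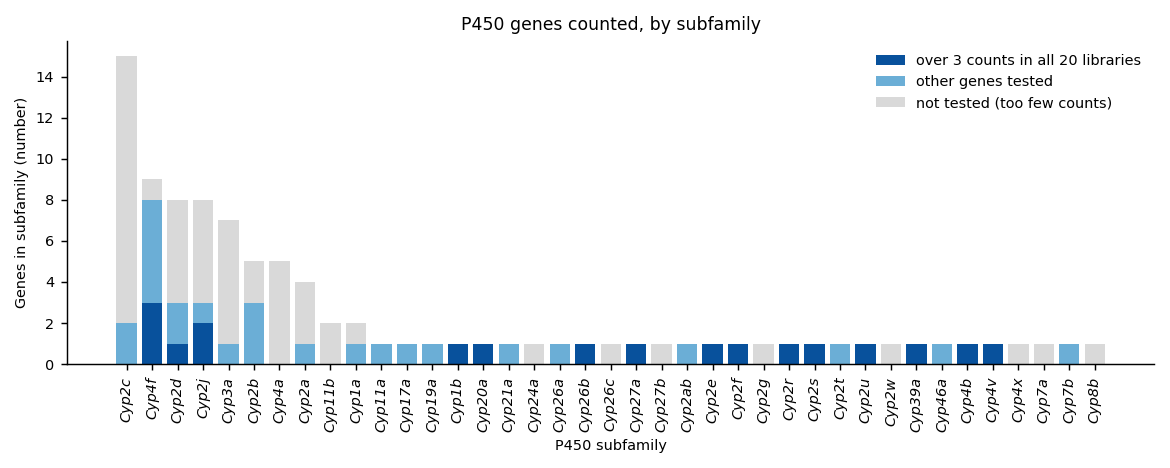
Number of P450 genes in each of the 39 subfamilies (bars), split into genes over 3 counts in all 20 libraries (18 genes), other genes tested, and genes with too few counts to test. Cyp2c is the largest subfamily, with 2 of its 15 genes tested, whereas 8 of the 9 Cyp4f genes were tested.

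Levels between genes are given as CPM per kilobase of exon, averaged over the 20 libraries. Cyp2e1, which oxidizes ethanol, acetone and fatty acids, stood at 660, and its subfamily held 82.9% of the summed P450 level. Cyp4b1, an oxidase of fatty acids and of some protoxins, followed at 36.0, then Cyp27a1, the mitochondrial sterol 27-hydroxylase (16.8), Cyp4v3, a fatty acid omega-hydroxylase (16.4), and Cyp20a1, a member with no settled substrate (10.7). Cyp4f13 (6.54), Cyp2j6 (6.21), Cyp2f2 (6.01), Cyp2d22 (5.67) and Cyp1b1 (5.54) completed the highest 10. The second place of Cyp4b1 came from H (81.4) and HH (119), with CC_s (16.1) and HC (28.3) also above Cyp27a1. In C, CC_l, CCC and HHC it lay below Cyp27a1 (10.8 against 15.9, 9.13 against 18.2, 18.4 against 35.8 and 8.42 against 13.3). Cyp2r1 (1.23), Cyp2c23 (1.03) and Cyp2s1 (0.662) were far less abundant. In families outside these, the highest tested members were Cyp39a1 (2.00), Cyp26b1 (1.13), Cyp7b1 (0.920), Cyp17a1 (0.454), Cyp11a1 (0.254), Cyp46a1 (0.231), Cyp21a1 (0.123), Cyp3a13 (0.0372) and Cyp19a1 (0.0224).

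**Figure D2:**
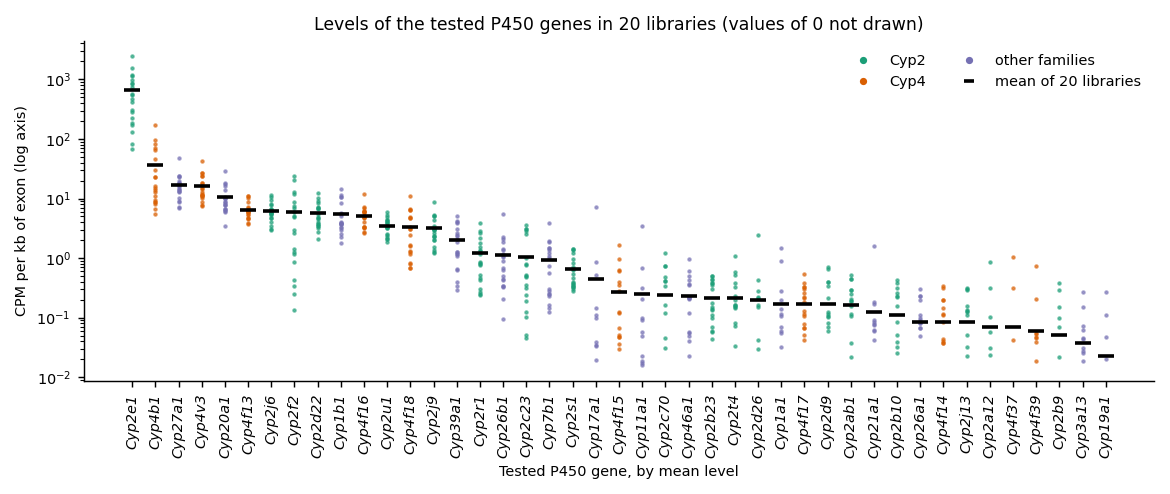
Levels of the 43 tested P450 genes in CPM per kilobase of exon (log axis), ordered by mean. Each dot is a library (values of 0 are not drawn) and each bar the mean of 20 libraries. Cyp2e1 lies above the other 42 genes in mean level, at 660 against 36.0 for Cyp4b1.

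By subfamily, the summed level per kilobase of Cyp2e was 721 ± 168 (SD, n = 3) in C and 146 ± 72.5 in H, 615 ± 337 in CC_s and 257 ± 175 in HC, 1370 ± 258 (n = 2) in CC_l and 323 ± 196 in HH, and 1800 ± 909 in CCC and 499 ± 468 in HHC. Cyp4b ran the other way during HFD, with 10.8 ± 4.08 in C and 81.4 ± 15.3 in H, 16.1 ± 12.5 in CC_s and 28.3 ± 15.4 in HC, 9.13 ± 0.679 in CC_l and 119 ± 69.3 in HH, and 18.4 ± 6.47 in CCC and 8.42 ± 0.246 in HHC. The H range did not overlap that of C for either subfamily. Cyp4f stayed between group means of 11.7 (CC_s) and 20.9 (HH), with overlapping ranges in H and C, HC and CC_s, and HHC and CCC, and with HH (17.1 and 24.8) above CC_l (10.7 and 15.6). Cyp2j was at 9 ± 1.78 in C and 12.1 ± 3.44 in H, and at 6.32 ± 2.5 in CC_l and 17.8 ± 4.05 in HH, the other 4 groups lying between 6.69 and 9.12. Cyp2d was between 4.45 and 8.23 in 7 groups and at 2.38 ± 0.454 in HHC. Cyp2c was low throughout, at 0.126 ± 0.0694 in C and 3.1 ± 1.65 in H, 0.344 ± 0.151 in CC_s and 1.48 ± 1.73 in HC, 0.487 ± 0.346 in CC_l and 3.17 ± 2.07 in HH, and 0.571 ± 0.249 in CCC and 1.57 ± 1.31 in HHC. Group means of Cyp2b did not exceed 0.888 and those of Cyp3a 0.127. These sums were not tested.

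Cyp2e1 supplied a smaller share of P450 counts in every H, HH and HHC mouse than in any of their control mice. Among C mice it made up 77%, 82.2% and 86.6% of the summed P450 CPM, and among H mice 40.4%, 22.7% and 51.9%. It made up 67.8%, 87.8% and 83.2% in CC_s and 71.4%, 65.4% and 24.8% in HC. In the long arm it was 91.9% and 88.4% in CC_l, 51.6% and 39.4% in HH, 89.3% and 90.9% in CCC, and 52.2% and 83.4% in HHC. HC and CC_s overlapped. The other 93 members together summed to 329 ± 31.5 CPM (SD, n = 3) in C and 493 ± 103 in H, to 283 ± 29.7 in CC_s and 378 ± 62.6 in HC, to 316 ± 30.0 (n = 2) in CC_l and 775 ± 228 in HH, and to 412 ± 161 in CCC and 344 ± 17 in HHC. These sums were likewise not tested.

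A gene was called when edgeR's quasi-likelihood test against the chow control gave an unadjusted p under 0.01 and a log2 fold change of 1 or more in either direction. The p values printed for single genes are adjusted over all 21464 tested genes. In H against C, 3 of 43 members were called higher (Cyp4b1, Cyp2r1 and Cyp2c23) and 2 lower (Cyp2f2 and Cyp2e1), beside 3.57% and 2.92% of all tested genes. At an adjusted p under 0.05 there were 2 (Cyp4b1 and Cyp2f2), beside 2.12% of all genes. In HH against CC_l, 5 members were called higher (Cyp4b1, Cyp20a1, Cyp4v3, Cyp2j9 and Cyp1b1) and 1 lower (Cyp2f2), beside 4.92% and 1.88%. At an adjusted p under 0.05 there were 2 (Cyp4b1 and Cyp20a1), beside 2.07%. After WL the counts were smaller. In HC against CC_s, 1 member was called higher (Cyp2r1) and 1 lower (Cyp2f2), beside 1.57% and 0.172%. In HHC against CCC, 0 were called higher and 1 lower (Cyp2d22), beside 0.447% and 2.67%. Neither WL comparison had a member at an adjusted p under 0.05 with edgeR (0% of all genes in each). At an unadjusted p under 0.05 there were 7 members in HC and 4 in HHC. The share of all genes at that unadjusted cut-off is not given here, so these 2 counts cannot be read as an excess. With DESeq2 and the same nominal rule, Cyp17a1 was called in HC beside Cyp2r1 and Cyp2f2, and in HHC Cyp11a1 was called lower and Cyp2d22 was not called.

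The median log2 fold change of the tested members was -0.23 in H, 1.11 in HC, 0.51 in HH and -1 in HHC, beside -0.15, 0.27, -0.23 and -0.06 for all tested genes. Between 4 and 9 members per comparison had a group at 0 counts. With those set to a bound of 3 counts over the group, the members' medians were -0.30, 0.90, 0.51 and -1.13. Over the 18 members detected in every library, the medians were 0.32, 0.39, 1.21 and -1.04, so that the sign in H turned. Of these 18, 11 had a positive log2 fold change in H, 14 in HC, 14 in HH and 5 in HHC. Of the 43 tested members, 44.2%, 81.4%, 55.8% and 20.9% had one, beside 42.8%, 64.1%, 42.5% and 43.3% of all tested genes. Shares and medians of all genes detected in every library are not given here. The values of the 18 therefore have no like value beside them.

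**Figure D3:**
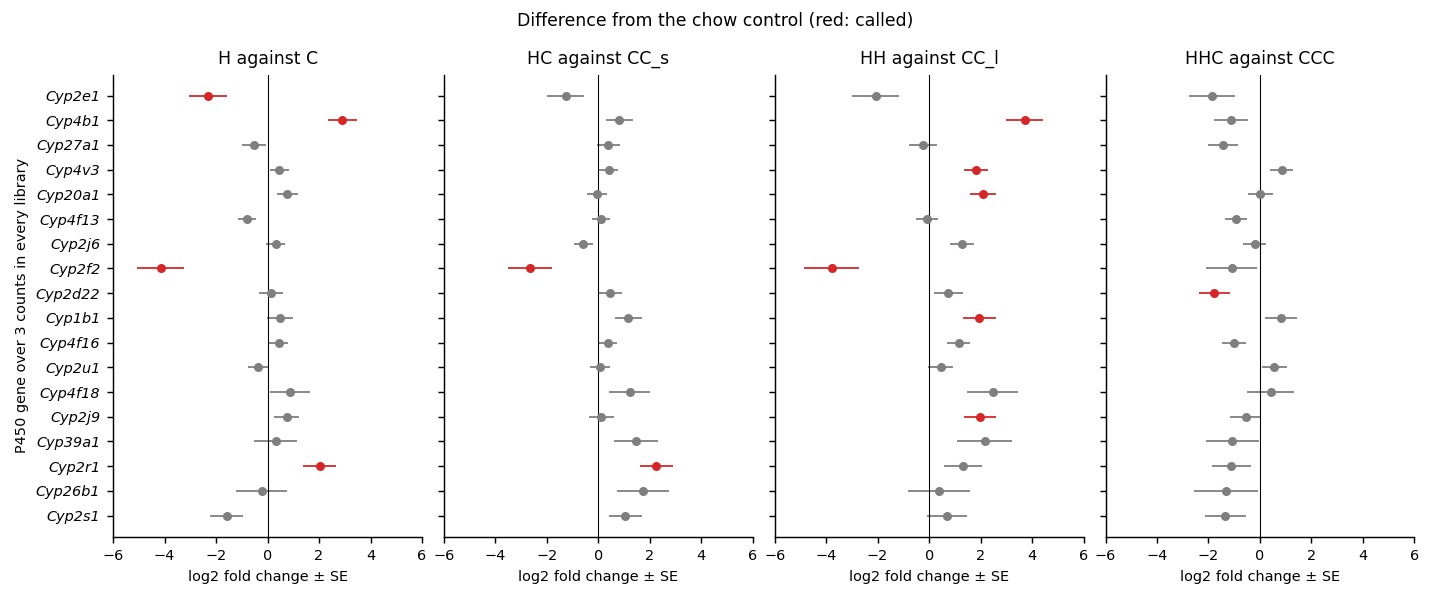
Log2 fold change ± SE against the chow control of the same age for the 18 P450 genes over 3 counts in every library, with called genes in red. Cyp2f2 lies left of 0 in all 4 comparisons and is called in 3, and Cyp4b1 is called higher in H (2.91) and HH (3.71) only.

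Whether the difference from chow after WL differed from that during HFD was tested as an interaction. For H and HC, 0 members passed an adjusted p under 0.05 with edgeR (0% of all genes), 6 had an unadjusted p under 0.05, and DESeq2 gave 2. For HH and HHC, 1 member passed (Cyp4b1), beside 0.815% of all genes, and 9 had an unadjusted p under 0.05. Shares of all genes at the unadjusted cut-off and with DESeq2 are not given here, so those counts cannot be read as an excess.

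The 300 bases around the start are shown for the members called higher in HH and for the 2 called lower in H. They let the sequences be read beside the values. RefSeq promoter windows (GRCm38.p6, 250 bases before and 50 after the start) were found for 73 of the 94 members. They were searched on both strands for GCGTG, the core of the xenobiotic response element bound by Ahr with Arnt (CACGC on the other strand). It was in 32.4% of all 32851 windows and in 20.5% of the 83 windows of members. Of the 35 tested members with a window, 13 held it (37.1%). Of the 5 members called higher in HH, 4 held it. Their windows are Cyp1b1 (chr17:79715012-79715311, minus strand), Cyp20a1 (chr1:60343050-60343349, plus strand), Cyp2j9 (chr4:96591436-96591735, minus strand), Cyp4v3 (chr8:45333114-45333413, minus strand) and Cyp4b1 (chr4:115647672-115647971, minus strand), with the core in capitals:
Cyp1b1: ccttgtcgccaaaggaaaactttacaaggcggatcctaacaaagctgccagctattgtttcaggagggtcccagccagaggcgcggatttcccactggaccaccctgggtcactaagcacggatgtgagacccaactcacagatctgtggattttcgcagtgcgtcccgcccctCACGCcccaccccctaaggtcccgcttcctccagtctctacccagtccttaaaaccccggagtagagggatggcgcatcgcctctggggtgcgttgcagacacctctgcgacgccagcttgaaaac
Cyp20a1: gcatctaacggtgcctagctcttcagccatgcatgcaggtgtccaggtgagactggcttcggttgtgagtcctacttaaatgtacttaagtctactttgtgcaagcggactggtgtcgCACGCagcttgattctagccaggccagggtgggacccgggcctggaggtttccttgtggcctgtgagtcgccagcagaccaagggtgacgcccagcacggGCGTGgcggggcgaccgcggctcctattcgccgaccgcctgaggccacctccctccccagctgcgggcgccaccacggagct
Cyp2j9: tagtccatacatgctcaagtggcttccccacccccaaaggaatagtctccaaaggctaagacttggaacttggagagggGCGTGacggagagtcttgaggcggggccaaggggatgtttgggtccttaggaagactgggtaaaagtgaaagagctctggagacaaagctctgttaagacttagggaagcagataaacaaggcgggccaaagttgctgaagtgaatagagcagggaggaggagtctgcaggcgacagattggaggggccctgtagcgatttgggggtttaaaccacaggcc
Cyp4v3: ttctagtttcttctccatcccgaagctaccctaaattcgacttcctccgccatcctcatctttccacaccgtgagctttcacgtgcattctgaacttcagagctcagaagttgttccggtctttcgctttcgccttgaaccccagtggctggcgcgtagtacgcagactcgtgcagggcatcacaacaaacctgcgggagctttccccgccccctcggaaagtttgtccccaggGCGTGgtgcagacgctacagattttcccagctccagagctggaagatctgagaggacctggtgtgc
Cyp4b1: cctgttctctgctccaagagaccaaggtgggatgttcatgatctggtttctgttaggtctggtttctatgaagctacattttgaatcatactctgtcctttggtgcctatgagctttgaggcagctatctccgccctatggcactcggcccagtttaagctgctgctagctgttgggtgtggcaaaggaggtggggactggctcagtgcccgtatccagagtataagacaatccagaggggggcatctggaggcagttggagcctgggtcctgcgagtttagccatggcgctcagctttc
Cyp20a1 held 2 matches, Cyp1b1, Cyp2j9 and Cyp4v3 held 1 each, and Cyp4b1 held 0. Both members called lower in H had windows without it, Cyp2f2 (chr7:27119705-27120004, plus strand) and Cyp2e1 (chr7:140763569-140763868, plus strand), and so stand in lower case throughout:
Cyp2f2: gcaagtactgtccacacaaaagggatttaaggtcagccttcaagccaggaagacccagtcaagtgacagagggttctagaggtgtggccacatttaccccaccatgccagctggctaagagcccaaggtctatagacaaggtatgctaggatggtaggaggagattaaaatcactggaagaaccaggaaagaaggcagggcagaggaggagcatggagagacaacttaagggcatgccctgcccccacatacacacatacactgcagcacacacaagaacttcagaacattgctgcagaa
Cyp2e1: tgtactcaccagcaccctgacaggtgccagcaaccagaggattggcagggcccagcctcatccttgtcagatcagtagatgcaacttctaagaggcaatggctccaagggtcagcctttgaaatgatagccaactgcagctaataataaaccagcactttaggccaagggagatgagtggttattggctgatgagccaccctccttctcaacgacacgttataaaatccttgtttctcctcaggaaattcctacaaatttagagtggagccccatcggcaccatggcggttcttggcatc
Cyp2r1, called higher in H and HC, also held the core, and Cyp2c23, called higher in H, had no window. A match is a description of these letters and not a bound site.

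Cyp2e1 and Cyp2f2, both on chromosome 7, were the members called lower during HFD, Cyp2e1 in H and Cyp2f2 in H and HH. Cyp2e1 stood at 1180, 1590 and 1900 CPM in C and at 282, 179 and 487 in H. The groups did not overlap, and the fitted log2 fold change was -2.30 (SE 0.74, adjusted p = 0.116). In HC it stood at 896, 620 and 148 CPM against 648, 2090 and 1240 in CC_s (log2 fold change -1.26, SE 0.72, adjusted p = 0.611), with the groups overlapping. In the long arm, the 2 HH mice had 997 and 398 CPM and the CC_l mice 3340 and 2560. The log2 fold change was -2.08 (SE 0.90, adjusted p = 0.245) and was not called, although DESeq2 called it. The HHC mice had 363 and 1790 CPM and the CCC mice 2500 and 5280 (log2 fold change -1.85, SE 0.89, adjusted p = 0.475). Every HH and HHC mouse was below every mouse of its control group, although the comparison did not pass in either. Control levels themselves ranged from 648 to 5280 CPM. The call in H was lost without C replicate 2 or 3, or without H replicate 1 or 2, at log2 fold changes of -2.02 to -2.29, and with the replicate block (-2.28). The difference of the effects in H and HC was 1.04 (SE 1.00, adjusted p = 0.767) and that in HH and HHC 0.23 (SE 1.22, adjusted p = 0.993).

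Cyp2f2, a lung-type P450 that oxidizes naphthalene and styrene, was lower in H, HC and HH. It stood at 15.0, 24.0 and 26.2 CPM in C and 0.874, 0.272 and 2.59 in H, a 17.7-fold difference (log2 fold change -4.15, SE 0.91, adjusted p = 0.0254). In HC, 1.72, 2.89 and 0.694 CPM stood against 5.36, 18.0 and 10.5 in CC_s (log2 fold change -2.67, SE 0.85, adjusted p = 0.536). No value of an H or HC mouse reached the lowest of its controls. In HH, 0.502 and 5.99 CPM stood against 42.1 and 47.9 in CC_l (log2 fold change -3.79, SE 1.08, adjusted p = 0.079). In HHC, 2.35 and 10.0 CPM stood against 12.1 and 14.3 in CCC (log2 fold change -1.09, SE 0.99, adjusted p = 0.727) and the gene was not called. The interaction was 1.48 (SE 1.15, adjusted p = 0.681) for H and HC and 2.70 (SE 1.40, adjusted p = 0.367) for HH and HHC. Without HH replicate 1 the HH log2 fold change was -2.89 and no longer called, and the call was also lost with only the compared groups. The HC call was lost without CC_s replicate 2, HC replicate 1 or HC replicate 3, at log2 fold changes of -2.15 to -2.64. That call was also lost without C replicate 1, HC replicate 3 and CC_l replicate 1 together. The gene shares 13.5% of its exon bases with an antisense gene (Gm15883) on the other strand, and whether the counting used strand is not given in the sources used here.

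Cyp4b1 on chromosome 4 was called higher in both HFD groups, with the lowest adjusted p of the members in each. It stood at 24.8, 33.3 and 15.0 CPM in C and 148, 218 and 185 in H, a 7.53-fold difference (log2 fold change 2.91, SE 0.56, adjusted p = 0.0134). In HH it stood at 380 and 159 CPM against 21.7 and 19.5 in CC_l, a 13.1-fold difference (log2 fold change 3.71, SE 0.72, adjusted p = 0.0244). Every H and HH mouse was above every control mouse of its comparison, and both calls held with each mouse left out in turn. After WL neither difference was called. HC mice had 37, 51.4 and 103 CPM and CC_s mice 67.4, 12.2 and 29.4 (log2 fold change 0.81, SE 0.53, adjusted p = 0.659). HHC mice had 18.6 and 19.4 CPM and CCC mice 31.2 and 51.8 (log2 fold change -1.13, SE 0.65, adjusted p = 0.56). The effect in HHC was smaller than that in HH by 4.84 on the log2 scale (SE 0.96, adjusted p = 0.0339), which no longer passed without each of 6 of the 8 mice in turn (the exceptions were HH replicate 2 and CCC replicate 1). The effect in HC differed from that in H by -2.10 (SE 0.75, adjusted p = 0.339). Without CC_s replicate 1, Cyp4b1 was called higher in HC (log2 fold change 1.62).

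Some markers of other cells were also higher in H and HH. Of all tested genes, 3.57% were called higher in H, 1.57% in HC and 4.92% in HH. In H and HH, the 4 endothelial markers summed to 606 to 1380 CPM, against 118 to 478 in their C and CC_l controls, and were at 66.7 and 79.0 in HHC. The 4 genes were called higher in HH (Pecam1 by 3.05, Vwf by 2.71, Kdr by 2.76 and Cdh5 by 2.63 on the log2 scale). Of the 6 macrophage markers, 5 were called higher in H and 6 in HH, with median log2 fold changes of 2.77 and 3.89. In HC, where Cyp4b1 was not called, 5 of the 6 were called higher (median 2.37). In HHC, 0 were called and their median was 0.72. Of the 5 adipocyte progenitor markers, 1 was called higher in H and 3 in HH (Pdgfra, Ly6a and Col1a1). The median log2 fold change of the 5 was 0.3 in H and 2.26 in HH. In H, the means of Pi16 (10.9 CPM) and Dpp4 (10.2) lay below those in C (35.3 and 18). The defining markers Pecam1 and Cd68 were not at 0 in any library. In CC_s and HC, the mouse with the highest Cyp4b1 of its group (67.4 and 103 CPM) also had the highest endothelial sum (599 and 631 CPM). For Pecam1 the HHC effect was smaller than the HH effect by 4.92 on the log2 scale (SE 1.09, adjusted p = 0.0423). The summed adipocyte markers were 30300 to 55000 CPM in H against 17800 to 120000 in C, and 23300 and 30300 in HH, below the 46500 and 47100 of CC_l. The part of these cells in the Cyp4b1 values was not tested. A share of 8.26% of the 50-base words in Cyp4b1 transcripts also occurs in other genes, 4.22% in the pseudogene Cyp4b1-ps2.

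**Figure D4:**
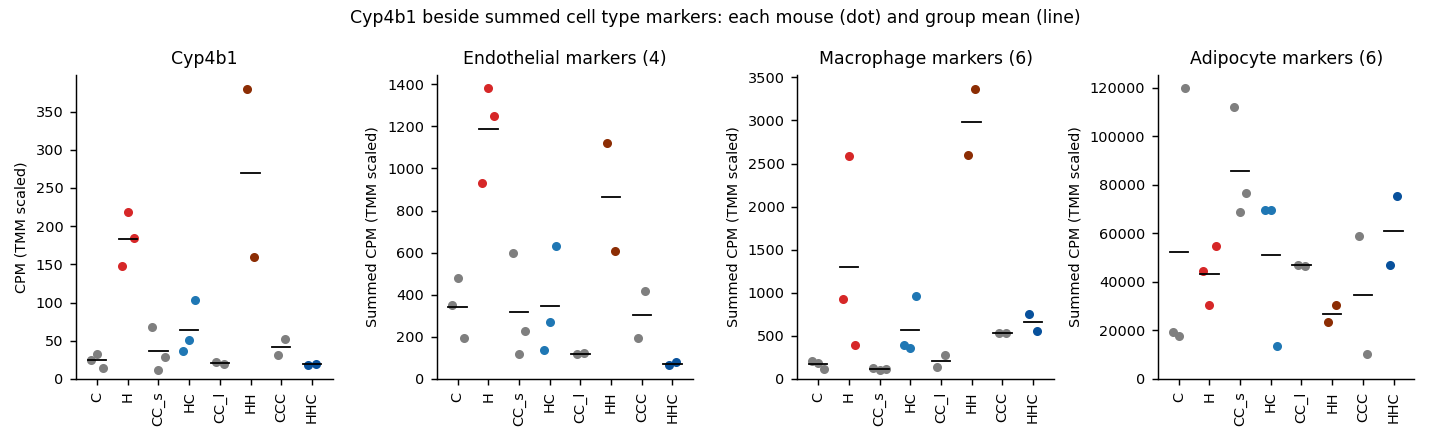
CPM of Cyp4b1 in each mouse (left) and the summed CPM of 4 endothelial, 6 macrophage and 6 adipocyte markers, with group means as lines. Cyp4b1 was highest in H and HH (148 to 380 CPM), where endothelial and macrophage sums were also high.

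Cyp2r1, the microsomal vitamin D 25-hydroxylase, was higher in both H and HC. It stood at 1.09, 0.992 and 0.895 CPM in C and at 4.64, 5.68 and 1.82 in H (log2 fold change 2.02, SE 0.63, adjusted p = 0.104). In HC the values were 3.85, 1.69 and 2.78 CPM and in CC_s 0.530, 0.573 and 0.634 (log2 fold change 2.25, SE 0.65, adjusted p = 0.536). No H or HC mouse overlapped its controls. In the long arm it stood at 8.30 and 6.08 CPM in HH against 2.50 and 3.27 in CC_l, and at 0.503 and 1.62 in HHC against 2.87 and 1.76 in CCC, and neither was called. In H, the call was lost without any of the C mice or without H replicate 1 or 2 (log2 fold changes of 1.70 to 2.14). In HC, it was lost without CC_s replicate 1 or 2 or HC replicate 1 (log2 fold changes of 1.93 to 2.24). Both calls were also lost without the low-count filter and with only the compared groups, and that in H with the replicate block. The call in H was lost as well without C replicate 1, HC replicate 3 and CC_l replicate 1 together. The related vitamin D gene Cyp27b1, which makes the active hormone, had at most 8 counts in a library and was not tested, and Cyp24a1, which degrades it, was not tested.

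The Cyp2c subfamily is known for epoxidizing arachidonic acid and for drug oxidation. Its highest gene here was Cyp2c23, an arachidonic acid epoxygenase best known from kidney. It stood at 0.109, 0.0992 and 0.269 CPM in C and at 6.08, 6.74 and 1.68 in H (log2 fold change 4.86, SE 1.44, adjusted p = 0.0862). The C mice had 2, 2 and 6 counts, and no H mouse overlapped them. It stood at 6.53, 1.69 and 0 CPM in HC and 1.06, 0.410 and 0.761 in CC_s, which overlapped. HH mice had 2.19 and 7.90 CPM and CC_l mice 1.04 and 0.524, and HHC mice had 0.670 and 5.39 against 1.14 and 0.220 in CCC, and neither comparison was called. The call in H was lost without C replicate 1 (log2 fold change 4.73) or C replicate 2 (4.62), and with the replicate block. The other tested member, Cyp2c70, a bile acid hydroxylase of liver, had 1.44, 2.45 and 0.960 CPM in H and 0, 0 and 0.0895 in C, and was not called, although it was without the low-count filter, with halved counts and with only the compared groups. Epididymal epithelium markers summed to 323, 946 and 137 CPM in the H mice. Of the 6, 3 (Lcn8, Spag11b and Rnase10) were called higher in H, beside 3.57% of all tested genes. The means of Crisp1 (48.1 against 565 CPM), Defb42 (30.6 against 48.6) and Lcn5 (0.747 against 0.871) were lower in H than in C. Lcn8 stood at 231, 596 and 0.288 CPM in the H mice, high in the 2 mice with the highest Cyp2c23. Crisp1 stood at 6.16, 18.6 and 120 CPM there, highest in the mouse with the lowest Cyp2c23. The part of these cells in the Cyp2c values was not tested. In HC, HH, CC_s and CC_l these markers summed to at most 166 CPM. In HH replicate 2, HC replicate 1 and HHC replicate 2, Cyp2c23 stood at 7.90, 6.53 and 5.39 CPM. The epididymal markers summed to 1.73, 1.51 and 1.18 CPM in those mice. In C replicate 1 they summed to 1810 CPM, with Cyp2c23 at 0.109 CPM.

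**Figure D5:**
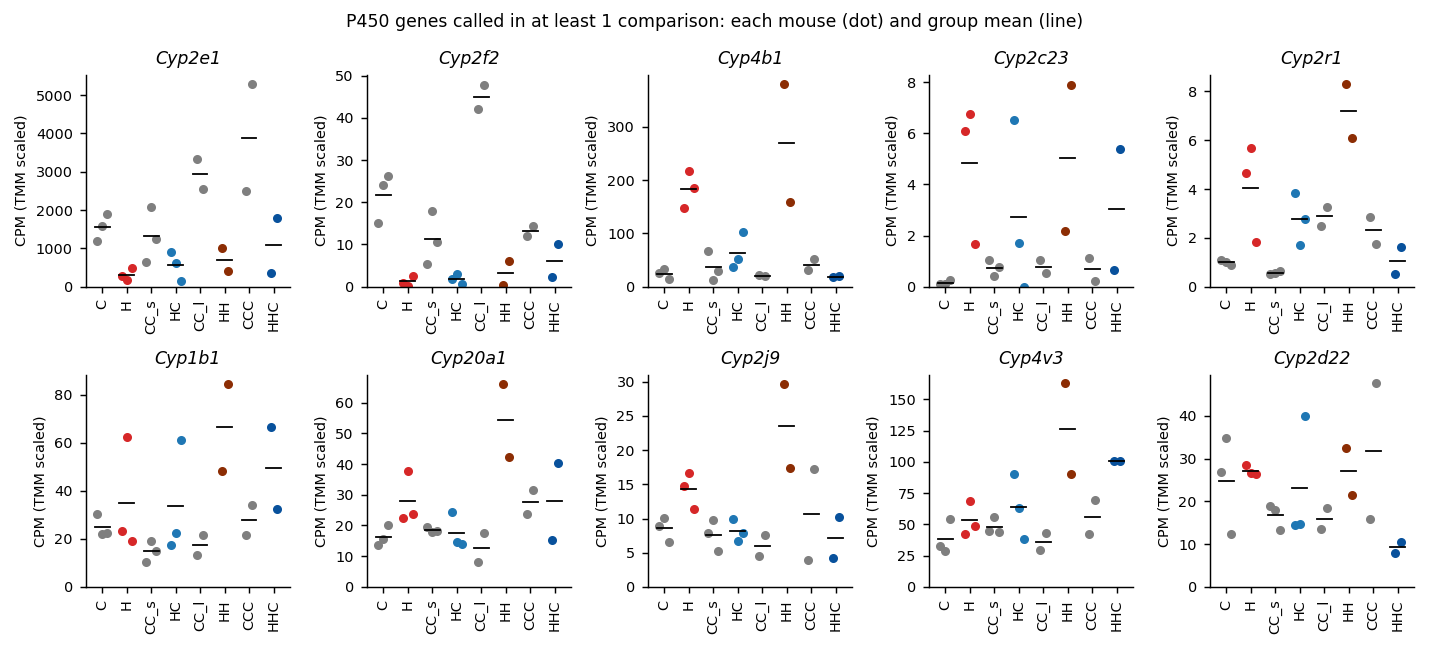
CPM of the 10 P450 genes called in at least 1 of the 4 comparisons, in each mouse (dots) with the group mean (lines) in the 8 groups. Cyp2e1 and Cyp2f2 are low in H and HH, Cyp4b1 is high in H and HH, and Cyp20a1, Cyp2j9 and Cyp4v3 have their highest values in HH.

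Cyp20a1, Cyp4v3, Cyp2j9 and Cyp1b1 were higher in HH and were not called in any other comparison. Cyp20a1 stood at 66.1 and 42.2 CPM in HH against 8.05 and 17.5 in CC_l (log2 fold change 2.09, SE 0.50, adjusted p = 0.0403). Cyp4v3 stood at 163 and 90.1 CPM against 29.5 and 42.9 (log2 fold change 1.81, SE 0.47, adjusted p = 0.0528). The Cyp4v3 exons overlap the protein-coding gene Gm45753 on the same strand over 8.22% of their bases, so reads there could be counted for either. Cyp2j9, which oxidizes arachidonic acid, stood at 29.7 and 17.4 CPM against 4.51 and 7.60 (log2 fold change 1.96, SE 0.62, adjusted p = 0.113). Cyp1b1, which oxidizes oestrogens and polycyclic hydrocarbons and is a target of Ahr, stood at 48.2 and 84.6 CPM against 13.3 and 21.5 (log2 fold change 1.94, SE 0.64, adjusted p = 0.132). The HH values of all 4 genes were above both CC_l values, but the 4 are grouped here because this same comparison called them higher. The share of all tested genes that separate this way was not counted.

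The 4 genes were not called after WL, apart from Cyp1b1 in HC without the low-count filter. In HHC, Cyp4v3 was at 101 and 101 CPM against 42.3 and 69.6 in CCC, and Cyp1b1 at 66.4 and 32.5 CPM against 21.7 and 34.0. Cyp20a1 was at 15.4 and 40.4 CPM in HHC against 23.7 and 31.7, and Cyp2j9 at 4.19 and 10.2 against 4.00 and 17.2. All but Cyp4v3 overlapped between HHC and CCC. In H, Cyp20a1 was at 22.6, 37.8 and 23.7 CPM against 13.5, 15.5 and 20.1 in C. Cyp2j9 was at 14.7, 16.7 and 11.4 CPM in H against 8.93, 10.1 and 6.63 in C. For both genes every H mouse was above every C mouse, without a call. Cyp4v3 overlapped between H (42.5, 68.7 and 48.8 CPM) and C (33, 28.9 and 54). Cyp1b1 was at 23.5, 62.6 and 19.0 CPM in H against 22.1 to 30.2 in C. In HC, Cyp1b1 was at 17.4, 22.3 and 61.1 against 10.5 to 19.1 in CC_s (log2 fold change 1.17, SE 0.52, adjusted p = 0.564). Without CC_l replicate 1, the library with the highest spermatid markers, none of the 4 was called in HH (log2 fold changes of 1.57 to 1.64). Cyp1b1 was also lost without CC_l replicate 2 or HH replicate 2 (log2 fold changes of 2.35 and 1.49), Cyp2j9 without CC_l replicate 2 or HH replicate 1 (2.41 and 1.54), and Cyp4v3 without HH replicate 1 (1.33). Cyp1b1 was also lost with the replicate block, and Cyp1b1, Cyp20a1 and Cyp2j9 without C replicate 1, HC replicate 3 and CC_l replicate 1 together. The macrophage, progenitor and endothelial sums given for Cyp4b1 were high in the same HH mice, and the part of those cells was not tested.

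Of the Cyp2j and Cyp4f subfamilies, which oxidize arachidonic acid and leukotrienes, Cyp2j6, Cyp4f16 and Cyp4f18 had higher values in HH that were not called. Cyp2j6 was at 42 and 34.1 CPM in HH against 10.9 and 20.6 in CC_l (log2 fold change 1.28, SE 0.46, adjusted p = 0.162). It was called with RLE normalization (1.29), DESeq2 (1.30), the replicate block (1.38) and without CC_l replicate 2 (1.84). Cyp4f16 was at 36.2 and 19.0 CPM against 10.0 and 15.1 (log2 fold change 1.14, SE 0.46, adjusted p = 0.213). It shares 16.3% of its 50-base words with Cyp4f37, so its counts are uncertain. Cyp4f18, known for omega-oxidation of leukotriene B4 in leukocytes, was at 11.7 and 8.67 CPM against 1.52 and 2.16 (log2 fold change 2.47, SE 0.99, adjusted p = 0.212), and was called without the low-count filter (2.57) and with only the compared groups (2.55). Cyp4f13 (26.1 and 26.4 CPM against 17 and 39.2) and Cyp4f15 (0.638 and 0.272 against 1.40 and 0.917) were not higher in HH. Cyp4f13 went the other way in H, at 24.4, 23.1 and 20.9 CPM against 49.8, 49.0 and 21.0 in C (log2 fold change -0.81, SE 0.35, adjusted p = 0.25). C replicate 3 lay within the range of H, and without it Cyp4f13 was called lower (log2 fold change -1.11). No other Cyp4f gene was called in any comparison or alternative.

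In HHC, Cyp2d22 was the member called, and it was lower. Cyp2d22, the mouse relative of the human drug-oxidizing CYP2D gene, stood at 8.04 and 10.6 CPM in HHC and 15.8 and 47.6 in CCC (log2 fold change -1.77, SE 0.59, adjusted p = 0.298). Without CCC replicate 2 the log2 fold change was -0.77, and the call was also lost without either HHC mouse (-1.59 and -1.98). It was lost with RLE normalization, DESeq2, halved counts, either replicate block and only the compared groups as well (-1.59 to -1.68). That CCC library also had the highest Cyp2e1 (5280 CPM), Cyp27a1 (106 CPM) and mesothelial marker sum (256 CPM), and the lowest adipocyte sum (10300 CPM), and the part of this in the result was not tested. Cyp27a1, which starts the acidic pathway of bile acid synthesis, was at 15.1 and 42.7 CPM in HHC against 49.7 and 106 in CCC (log2 fold change -1.43, SE 0.57, adjusted p = 0.378). It was not called, although it was without the low-count filter (-1.39), with the replicate block (-1.49), without CCC replicate 1 (-1.88) and without HHC replicate 2 (-2.37). It stood between 15.1 and 51.6 CPM in the other 19 libraries. Cyp4f13 (log2 fold change -0.94, SE 0.43, adjusted p = 0.454) and Cyp4f16 (-1, SE 0.46, adjusted p = 0.446) were also low without a call.

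Members of sterol and retinoid pathways were low and variable. Cyp7b1, an oxysterol 7-alpha-hydroxylase, ranged from 0 to 8.39 CPM, Cyp39a1, which hydroxylates 24-hydroxycholesterol, from 0.895 to 15.6, and Cyp46a1, which makes that oxysterol in brain, from 0 to 3.16. Cyp26b1, which clears retinoic acid, ranged from 0.503 to 29.4 CPM, highest in HC replicate 3. None of these was called with the low-count filter, and without it edgeR called Cyp26b1 higher in HC. Cyp2u1, a fatty acid hydroxylase expressed in many tissues, lay between 9.82 and 30.6 CPM in all 20 libraries and was not called.

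The steroidogenic members stood out in a few libraries. Cyp17a1, the 17-alpha-hydroxylase of androgen synthesis, was at 20 CPM in CC_l replicate 1, 2.38 in HC replicate 3 and 1.45 in HC replicate 2, and at most 0.397 in the other 17 libraries. Cyp11a1, which cleaves the side chain of cholesterol, was at 16.8 CPM in CC_l replicate 1 and 3.27 in HC replicate 3, and at most 1.52 elsewhere. Cyp21a1 (3.48 CPM) and Cyp19a1, aromatase (1.22 CPM), were also highest in CC_l replicate 1, and so were Cyp2d26 (4.33), Cyp2a12 (2.93), Cyp4f37 (2.96) and Cyp4f39 (2.10). In CC_l replicate 1 the summed Leydig cell markers stood at 42.1 CPM and the spermatid markers at 3330, and in HC replicate 3 at 10.2 and 508. In CC_l replicate 2 they stood at 3.73 and 11. In CCC replicate 2 the Leydig sum was 12.4 CPM, of which Star alone was 11.6, and the spermatid sum was 8.56. Cyp17a1 was at 0 and Cyp11a1 at 0.439 CPM in that library. Star was also 6.3 CPM of the Leydig sum in HC replicate 3. The part of testicular RNA in these values was not tested. None of these P450 genes was called with the low-count filter and all mice in edgeR. Without the filter, edgeR called Cyp11a1 lower in H, HH and HHC and higher in HC, and Cyp17a1 higher in HC and lower in HH. Without HC replicate 1, Cyp17a1 was called higher in HC. DESeq2 called Cyp17a1 higher in HC and Cyp11a1 lower in HHC.

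Genes that serve the P450s were examined from lists. Of the 10 tested redox partners, 1 was called lower in H, Por, and 0 higher, beside 2.92% and 3.57% of all tested genes. A list of 10 is too small for this count to be read as a result about the list. Por, which passes electrons to P450s of the endoplasmic reticulum, stood at 265, 240 and 251 CPM in C and 78.5, 56.4 and 111 in H (log2 fold change -1.62, SE 0.34, adjusted p = 0.0187). The groups did not overlap. It was at 155, 200 and 128 CPM in HC against 265, 280 and 318 in CC_s (log2 fold change -0.84, SE 0.33, adjusted p = 0.544), and no HC value reached the lowest CC_s value. It was at 128 and 90.8 CPM in HH against 186 and 204 in CC_l (adjusted p = 0.296). No redox partner was called in HC, HH or HHC.

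Of the 14 tested xenobiotic sensors and their partners, 2 were called higher in HH (Ahr and Nfe2l2), beside 4.92% of all tested genes. In the other comparisons 0 were called. A list of 14 is too small for this count to be read as a result about the list. Ahr, the receptor of dioxins, stood at 21.5 and 10.9 CPM in HH against 2.62 and 3.27 in CC_l (log2 fold change 2.46, SE 0.64, adjusted p = 0.056). Nfe2l2, the regulator of oxidative stress genes, stood at 105 and 80.1 CPM against 34.9 and 43.7 (log2 fold change 1.23, SE 0.37, adjusted p = 0.0907). Ahr was lost without CC_l replicate 1 or HH replicate 1 (log2 fold changes of 2.31 and 1.90), and Nfe2l2 without either CC_l mouse or HH replicate 1 (1.05 to 1.43). Nr1i2 (PXR) and Nr1i3 (CAR), which drive drug-metabolizing P450s in liver, were not tested and reached at most 1.29 and 0.358 CPM. Cyp1a1, the classic Ahr target, was at 0.0912 and 0 CPM in HH and at most 4.12 CPM in any library, and was not called.

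Of the 6 P450s under other names and epoxide hydrolases, Ephx1 was called higher in H, HC and HH. The shares of all tested genes called higher there were 3.57%, 1.57% and 4.92%. Ephx1 hydrolyses xenobiotic epoxides. It stood at 96.1, 157 and 86.2 CPM in H against 55.1, 49.4 and 48.8 in C (log2 fold change 1.15, SE 0.35, adjusted p = 0.0985). It stood at 80.6, 80.4 and 63.5 CPM in HC against 38.9, 25.2 and 29.7 in CC_s (log2 fold change 1.26, SE 0.35, adjusted p = 0.536), and at 238 and 175 in HH against 54.2 and 37.6 in CC_l (log2 fold change 2.17, SE 0.44, adjusted p = 0.0253). In HHC it was at 28.8 and 61.1 CPM against 46.7 and 78.1 and was not called. The call in H was lost without C replicate 2 or 3 or H replicate 2 (log2 fold changes of 0.83 to 1.12), and that in HC without CC_s replicate 2 or 3 (1.12 and 1.22). Tbxas1, the thromboxane synthase, was called higher in HC, at 4.33, 6.83 and 27.4 CPM against 0.993, 2.54 and 2.92 (log2 fold change 2.57, SE 0.78, adjusted p = 0.536), beside macrophage sums of 359 to 959 CPM in HC and 109 to 124 in CC_s. It was lost without HC replicate 3 (log2 fold change 1.36), CC_s replicate 1 (2.23) or CC_s replicate 2 (2.71). Ptgis, the prostacyclin synthase, was called lower in HHC, at 10.7 and 13.5 CPM against 23.5 and 59.6 (log2 fold change -1.78, SE 0.54, adjusted p = 0.276), and was lost without CCC replicate 2 (log2 fold change -0.96) or either HHC mouse (-1.63 and -1.95). Ephx2, Ephx3 and Ephx4 were not called.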

How the data were processed

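TRAP–seq of 20 mice in 8 groups was analysed. The authors trimmed reads with Trim Galore 0.6.6, aligned them to mm10 with HISAT2 2.2.1, counted them with featureCounts (Subread 2.0.1) and deposited whole-number counts per gene, without normalization. The annotation, strand and pair handling of the counting are not given in the sources used here. Between 74.4% and 89.2% of nonzero counts per library were even, so sequenced fragments were probably fewer than counts. Mice are separate animals per the labels. Depth was 10710277 to 36738954 counts, so that 3 counts corresponded to 0.0817 to 0.28 CPM, and this covers counting error only.

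Symbols, positions and exon lengths came from GENCODE vM21 (mm10), which named 45229 of the 46078 genes. edgeR 4.0.16 (R 4.3.3) turned the deposited counts into CPM (TMM scaled), CPM per kilobase of exon and log2 fold changes. The 21464 genes kept by filterByExpr entered 1 quasi-likelihood fit of the 8 groups (20 libraries). A gene was called at an unadjusted p under 0.01 and a log2 fold change of 1 or more in either direction, and Benjamini-Hochberg adjusted p values are beside it. Interactions used an adjusted p under 0.05. No adjustment was made over the members alone. The procedure was tested on simulated data.

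Named genes were members called in any comparison, the 10 highest tested members per length, the highest tested member of each family, members whose interaction passed, those of subfamilies with 2 or more tested genes, and Cyp2e1. Cyp1a1, Cyp24a1, Cyp27b1, Cyp2s1 and Cyp2u1 were named after their values were seen. Fold changes are given for members over 3 counts in at least 17 libraries. The members and lists were chosen with earlier results of these data known. Alternatives were RLE normalization, DESeq2 1.42.0, no filter, halved counts, only the compared groups, a replicate block, an adjusted p rule and leaving out each mouse. A crossed replicate block and a fit without C replicate 1, HC replicate 3 and CC_l replicate 1 were alternatives chosen after seeing the data. Figures were drawn with matplotlib.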

Additional observations from a re-analysis of the deposited data

Results flagged for a closer look

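Cyp4b1 was flagged because its difference from chow differed between HFD and WL in the long arm. The log2 fold change was 3.71 in HH and -1.13 in HHC, and the interaction was -4.84 (SE 0.96, adjusted p = 0.0339 by edgeR). Both HH mice were above and both HHC mice below their own controls. The flag rests on groups of 2 mice. The interaction was not called with RLE normalization, with only the compared groups, with the replicate block, without C replicate 1, HC replicate 3 and CC_l replicate 1 together, or without either CC_l mouse, HH replicate 1, CCC replicate 2 or either HHC mouse. Groups of 2 or 3 mice are too small for a test of single outlying mice, so none was flagged that way.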

How the results depend on the processing

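Of the 460 alternative values for 37 log2 fold changes, 369 kept their direction and their side of the threshold, 16 passed it anew, 75 no longer passed, and none changed direction. For the counts of called members, the main values were 5 in H, 2 in HC, 6 in HH and 1 in HHC. Apart from the adjusted p rule, shares of all tested genes called under the alternatives are not given here. The interactions gave 0 (H and HC) and 1 (HH and HHC). An adjusted p rule gave 2 in H, 0 in HC, 2 in HH and 0 in HHC. No filter on low counts gave 5 in HC, 10 in HH, 3 in HHC, and interactions of 4 (H and HC) and 2 (HH and HHC). RLE normalization gave 0 in HHC and 0 interactions of HH and HHC, DESeq2 gave 2 and 4 interactions, and halved counts gave 0 in HHC. Only the compared groups gave 1 in HC, 0 in HHC and 0 interactions of HH and HHC. Leaving out each mouse in turn gave 2 to 5 in H, 0 to 2 in HC, 2 to 5 in HH, 0 to 2 in HHC, 0 to 0 interactions of H and HC and 0 to 1 of HH and HHC. The lowest counts came without C replicate 2 in H, CC_s replicate 2 in HC, CC_l replicate 1 in HH, and CCC replicate 2 or HHC replicate 1 in HHC, and the count of 2 in HHC came without CCC replicate 1. Without C replicate 1, HC replicate 3 and CC_l replicate 1 together, an alternative chosen after seeing the data, there were 1 in HC, 3 in HH and 0 interactions of HH and HHC. With the replicate block, 2 members were called in H (Cyp4b1 and Cyp2f2) and 0 interactions of HH and HHC. Deviations of same-numbered mice correlated at -0.277 to 0.192. Groups of 2 or 3 mice are too small for these values to decide whether the numbers pair the mice. With crossed numbers, also chosen after seeing the data, the block gave 6 in HH and 0 in HHC. With only the compared groups, Ephx1 in H, Tbxas1 in HC and Ptgis in HHC were no longer called, nor was Ephx1 in H with the replicate block or Ptgis with RLE normalization. Ahr, Nfe2l2 and Tbxas1 were lost without the 3 libraries, and Nfe2l2 without the filter. The causes of these changes were not tested. Groups of 2 or 3 mice limit every comparison, and members under 3 counts could not be judged at this depth.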
